A study of Mus musculus with 24 samples.

Results

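The kynurenine and salvage genes that build nicotinamide adenine dinucleotide (NAD) were followed in mouse kidney during ureter obstruction and after its release. The set was a fixed list of 10 genes: Afmid, Kmo, Kynu, Haao, Acmsd, Qprt and Aadat of tryptophan breakdown, and Nampt, Naprt and Nadsyn1 of the salvage and final steps. All 10 had a row in the deposited expression table of 14785 genes, and all 10 were tested. The samples were bulk kidney RNA from male C57/BL6 mice, described as cortical in the series title, with poly(A) selection and 4 animals in each of 6 groups. Sham animals (sham) had surgery without obstruction, and the time at which they were killed is not given in the labels. In unilateral ureter obstruction (UUO) the ureter of a kidney is tied off, and kidneys were taken after 2 days (UUO2) or 7 days (UUO7). In the reversal groups the ureter was reimplanted after 7 days of obstruction, and kidneys were taken 1, 2 or 4 weeks later (R1W, R2W and R4W). Mice were 8 to 9 weeks old at the start, 4 of 10 animals per group were chosen for sequencing, and no genetic change was part of the design.

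NAD carries electrons in energy metabolism and is consumed by sirtuins, PARP enzymes and the ectoenzymes CD38 and BST1, so cells must keep making it. In the de novo route Afmid hydrolyses N-formylkynurenine to kynurenine, Kmo hydroxylates it, Kynu cleaves the product, and Haao opens its ring to an unstable semialdehyde. That semialdehyde either closes by itself to quinolinic acid, which Qprt turns into nicotinic acid mononucleotide, or is diverted from NAD synthesis by Acmsd. Aadat takes kynurenine to kynurenic acid, while Nampt and Naprt start the salvage of nicotinamide and nicotinic acid, and Nadsyn1 performs the last amidation of the de novo and nicotinic acid routes. The proximal tubule of the kidney, together with the liver, is known for holding the complete de novo route, whereas most other cells depend on Nampt.

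Values are FPKM (fragments per kilobase of transcript, scaled to the fragments mapped in the library), which allow levels of different genes to be set side by side within these libraries. Differences were tested with limma, a linear model with moderated errors, on log2(FPKM + 1), which understates the fold change of low genes. FPKM are shares of a library, and the median gene moved by 0.42 (log2) in UUO7, 0.37 in R1W, 0.32 in R2W and 0.30 in R4W against sham, and by 0.09 in UUO2. Each test was therefore also made after every library was divided by a scaling factor, the median over genes of its ratio to the geometric mean of all libraries, which brought those medians to between -0.01 and 0.01. A gene is said to have risen or fallen only where its Benjamini-Hochberg adjusted p over all 14785 genes was under 0.05 in the same direction on deposited and on rescaled values.

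Several libraries stood apart and are named here before the results. The 4 UUO2 libraries carried sample names of another form and held the mitochondrial ribosomal RNA mt-Rnr1 at 2343 to 2832 FPKM, compared with 342 to 709 FPKM in the other 20, so a library batch and the 2-day group cannot be told apart. R4W replicate 2 is a 4-week kidney by its title and a 2-week kidney by its treatment label, and it was kept with its title. Sham replicate 2 held the highest summed adipose and urothelial markers of the sham group. In R4W the summed adipose markers ranged from 61.6 to 1029 FPKM and the summed urothelial markers from 24.3 to 81.8 FPKM, compared with at most 199.5 and 21.5 FPKM in sham. The part of these tissues in the R4W values was not tested, and the counts of calls in R4W against sham and against UUO7 were the same with any library of either group left out. The 10 proximal tubule markers fixed for this work had a row each, with summed values of 8235 to 9862 FPKM in sham, 2190 to 2794 FPKM in UUO7 and 4497 to 5851 FPKM in R4W, so the tissue held proximal tubule RNA in every group. Fewer proximal tubule cells and less RNA per cell cannot be told apart in such bulk samples.

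The table places Afmid (ENSMUSG00000017718) at chr11:117825924-117839908, Kmo (ENSMUSG00000039783) at chr1:175620381-175662116, Kynu (ENSMUSG00000026866) at chr2:43555329-43682715, Acmsd (ENSMUSG00000026348) at chr1:127729413-127767978 and Aadat (ENSMUSG00000057228) at chr8:60505932-60545677, all on the plus strand of mm10. Haao (ENSMUSG00000000673) lies at chr17:83831356-83846790, Qprt (ENSMUSG00000030674) at chr7:127107114-127122226, Naprt (ENSMUSG00000022574) at chr15:75890964-75894481 and Nadsyn1 (ENSMUSG00000031090) at chr7:143795584-143822849, all on the minus strand, and Nampt (ENSMUSG00000020572) at chr12:32819545-32853349 on the plus strand. All 10 are protein-coding genes. Exons of Afmid overlap those of Tk1 on the other strand and of Gm20708 on the same strand, exons of Naprt overlap those of Eef1d on the same strand, and exons of Acmsd overlap those of an antisense transcript. Whether strand was used in counting is not given in the sources used here, so the values of Afmid, Naprt and Acmsd may hold reads of these neighbours. Eef1d averaged 190.0 FPKM over the 24 libraries and Tk1 18.9 FPKM.

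Upstream sequences are shown for both genes whose window held a searched motif and for the branch-point enzyme Qprt. The 250 bases before the RefSeq start (GRCm38.p6) were available for 8 of the 10 genes, and Kynu and Naprt had no entry. The RefSeq starts of Aadat and Qprt lie inside these genes as the table places them, so part of both windows is inside the gene by the table's coordinates. Both strands, named relative to the gene, were searched for 3 motifs of kidney tubule regulators: CAAAGTCCA (HNF4), AGGTCAAAG (PPAR) and TCAAGGTCA (ERR). The HNF4 and PPAR letters overlap, since the PPAR motif ends in the 5 letters with which the HNF4 motif begins. Of 32851 promoters of this length, 0.384% held the HNF4 motif, 0.381% the PPAR motif and 0.387% the ERR motif. Of the 8 promoters searched, that of Haao held the PPAR motif on the strand opposite to the gene 61 bases before the start, and that of Aadat held the HNF4 motif on the strand opposite to the gene 72 bases before the start. A match describes the letters in this window and is no evidence of binding. These are the upstream windows of Haao (chr17:83846791-83847040, minus strand) and Aadat (chr8:60505874-60506123, plus strand), followed by that of the branch-point enzyme Qprt (chr7:127122030-127122279, minus strand), which held no match, 5′ to 3′, with the motif in capitals as it reads on the gene's strand.
Haao: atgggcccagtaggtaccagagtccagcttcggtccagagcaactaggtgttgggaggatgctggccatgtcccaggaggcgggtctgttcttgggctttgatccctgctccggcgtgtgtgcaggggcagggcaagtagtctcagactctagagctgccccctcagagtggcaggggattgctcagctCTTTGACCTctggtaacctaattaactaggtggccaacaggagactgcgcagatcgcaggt
Aadat: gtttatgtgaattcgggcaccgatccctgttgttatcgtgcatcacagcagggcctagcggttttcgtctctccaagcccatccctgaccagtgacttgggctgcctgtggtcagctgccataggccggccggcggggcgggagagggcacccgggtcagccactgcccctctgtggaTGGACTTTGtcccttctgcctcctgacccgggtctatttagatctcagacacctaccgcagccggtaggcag
Qprt: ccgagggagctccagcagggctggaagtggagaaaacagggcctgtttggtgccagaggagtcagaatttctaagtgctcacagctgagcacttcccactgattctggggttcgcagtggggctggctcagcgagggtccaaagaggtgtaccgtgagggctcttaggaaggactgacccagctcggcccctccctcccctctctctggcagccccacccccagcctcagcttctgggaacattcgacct

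Most of the de novo genes were lower than sham after 2 days of obstruction, and Afmid, Kmo and Acmsd were lower still after 7 days, while Qprt and Naprt were not called against sham at either time. In UUO2 against sham, 6 of the 10 genes fell (Afmid, Kmo, Haao, Acmsd, Aadat and Nadsyn1) and Kynu rose, where 17.0% of all 14785 genes were called lower and 25.1% higher. In UUO7 against sham, 7 fell, the same 6 and Nampt, where 17.8% of all genes were called lower and 36.5% higher. In UUO7 against UUO2, 6 fell (Afmid, Kmo, Kynu, Acmsd, Qprt and Nampt), where 14.7% of all genes were called lower and 30.0% higher. The median log2 difference of the 10 genes was -0.63 in UUO2 and -1.21 in UUO7 against sham, beside medians of all genes of 0.09 and 0.42. On rescaled values these medians were -0.76 and -1.68, and in UUO7 against UUO2 all 10 genes were lower on rescaled values alone, where 31.9% of all genes were called lower.

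**Figure D1:**
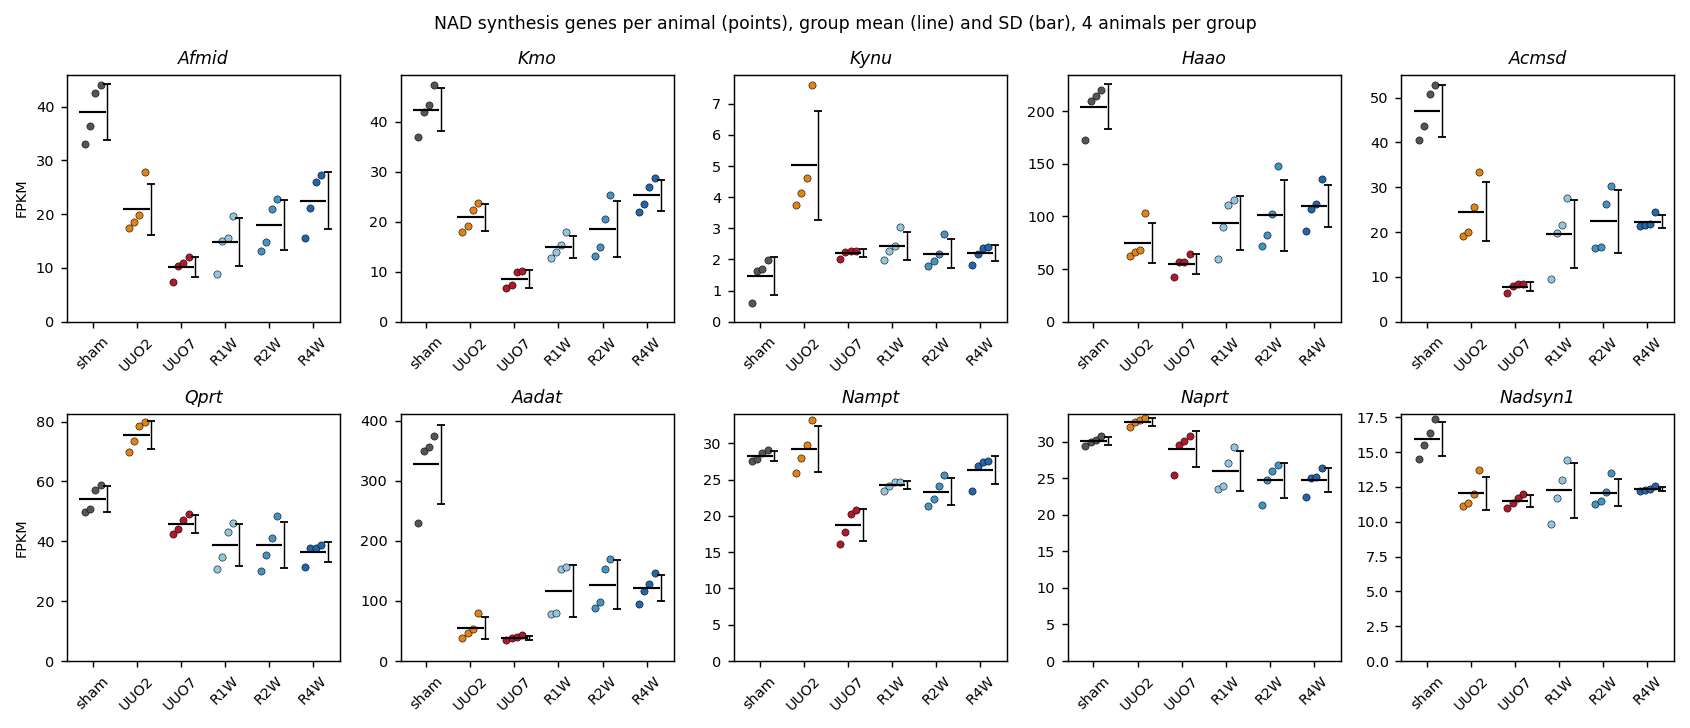
FPKM (vertical axes, from 0) of the 10 genes in each of the 24 animals, by group; points are animals, lines are group means and bars are SD over 4 animals. Aadat averaged 328 FPKM in sham and 39.1 FPKM in UUO7, whereas Qprt was highest in UUO2 at 75.5 FPKM and Kynu reached 5.02 FPKM there.

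Afmid and Kmo, the first steps after the opening of tryptophan, fell in step with the length of obstruction. Kmo measured 43.4, 36.9, 47.4 and 41.9 FPKM in the sham kidneys, 22.4, 23.8, 19.2 and 17.9 FPKM in UUO2, and 10.1, 9.94, 6.74 and 7.42 FPKM in UUO7. The 3 groups did not overlap. Kmo was 2.03-fold lower in UUO2 than in sham (log2 difference -0.99 ± 0.16 SE, limma adjusted p = 4.81e-05) and 4.96-fold lower in UUO7 (log2 difference -2.20 ± 0.16, limma adjusted p = 3.81e-10). Afmid measured 42.5, 32.96, 44.0 and 36.4 FPKM in sham, 19.9, 27.8, 17.4 and 18.5 FPKM in UUO2, and 12.0, 10.9, 7.45 and 10.4 FPKM in UUO7. These groups did not overlap either. Afmid was 3.83-fold lower in UUO7 than in sham (log2 difference -1.85 ± 0.22, limma adjusted p = 1.39e-07) and 2.06-fold lower in UUO7 than in UUO2 (log2 difference -0.97 ± 0.22, limma adjusted p = 0.00057).

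Kynu, the kynureninase, was the lowest of the 10 genes in every group and was the single one called higher than sham at 2 days. It measured 1.70, 1.99, 1.62 and 0.59 FPKM in sham and 4.61, 7.59, 4.12 and 3.76 FPKM in UUO2, with no overlap. The rise was 3.40-fold (log2 difference 1.28 ± 0.18, limma adjusted p = 5.82e-06), and it was 1.24 on rescaled values. By 7 days Kynu measured 2.24, 2.27, 2.00 and 2.26 FPKM, below all UUO2 kidneys and just above all sham kidneys. The difference of UUO7 from sham was 0.41 on deposited and 0.10 on rescaled values (limma adjusted p = 0.0419 and 0.627), and is not called. The 2-day libraries are those with high mt-Rnr1. The part of that library difference in the rise of Kynu was not tested.

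Haao and Aadat, the most abundant of the 10 genes in sham, lost most of their level by 2 days. Aadat, the aminotransferase that makes kynurenic acid, measured 375, 230, 356 and 350 FPKM in sham, 54.1, 79.9, 47.1 and 38.8 FPKM in UUO2, and 42.8, 35.3, 40.2 and 37.9 FPKM in UUO7. Sham did not overlap with either, while UUO2 and UUO7 overlapped. Aadat was 5.96-fold lower in UUO2 (log2 difference -2.58 ± 0.26, limma adjusted p = 9.90e-08) and 8.39-fold lower in UUO7 (log2 difference -3.01 ± 0.26, limma adjusted p = 1.71e-09), the largest differences from sham among the 10 genes. Haao, the dioxygenase that opens the ring of 3-hydroxyanthranilate, measured 219.87, 173, 209.73 and 215 FPKM in sham, 68.5, 103, 66.2 and 62.6 FPKM in UUO2, and 64.2, 56.7, 56.3 and 42.4 FPKM in UUO7. It fell 2.72-fold in UUO2 (log2 difference -1.45 ± 0.22, limma adjusted p = 1.70e-05) and 3.72-fold in UUO7 (log2 difference -1.88 ± 0.22, limma adjusted p = 1.23e-07). From UUO2 to UUO7, Haao and Aadat differed by -0.43 and -0.44 on deposited values (limma adjusted p = 0.0884 and 0.139) and by -0.78 and -0.78 on rescaled values (adjusted p = 0.0115 and 0.0236), so neither is called.

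At the branch point the enzymes moved apart. Acmsd, which diverts the semialdehyde away from NAD, measured 52.8, 40.6, 50.8 and 43.8 FPKM in sham, 25.6, 33.5, 19.2 and 20.0 FPKM in UUO2, and 8.07, 8.45, 8.37 and 6.35 FPKM in UUO7, with no overlap between the 3 groups. It was 1.91-fold lower than sham in UUO2 (log2 difference -0.93 ± 0.24, limma adjusted p = 0.00259) and 6.02-fold lower in UUO7 (log2 difference -2.45 ± 0.24, limma adjusted p = 9.55e-09). Qprt, which commits quinolinic acid to NAD, measured 58.8, 49.95, 57.1 and 50.8 FPKM in sham and 79.9, 69.9, 78.5 and 73.7 FPKM in UUO2, where all 4 kidneys were above all sham kidneys. That difference was 0.47 ± 0.12 on deposited values (limma adjusted p = 0.0033) and 0.34 on rescaled values (adjusted p = 0.0727), and so is not called. In UUO7, Qprt measured 49.2, 42.5, 47.1 and 44.3 FPKM, below all sham kidneys, at -0.24 on deposited values (limma adjusted p = 0.0865) and -0.71 on rescaled values (adjusted p = 0.000328), again not called. The fall of Qprt from UUO2 to UUO7 was called, at -0.71 ± 0.12 (limma adjusted p = 4.07e-05), a 1.65-fold difference.

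The ratio of Qprt to Acmsd within a library does not depend on how that library is scaled. It ranged from 1.11 to 1.23 in the 4 sham kidneys, from 2.09 to 4.09 in UUO2 and from 5.03 to 6.97 in UUO7. The groups did not overlap, and Qprt was above Acmsd in all 24 libraries. After reversal the ratio ranged from 1.57 to 3.24 in R1W, from 1.57 to 2.15 in R2W and from 1.46 to 1.77 in R4W, still above every sham kidney. Qprt over Haao ranged from 0.237 to 0.289 in sham, from 0.676 to 1.19 in UUO2, from 0.751 to 1.04 in UUO7 and from 0.288 to 0.366 in R4W, where UUO2 and UUO7 overlapped with each other, and R4W and sham overlapped by a narrow margin. These ratios compare transcript levels and are given without a test.

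**Figure D2:**
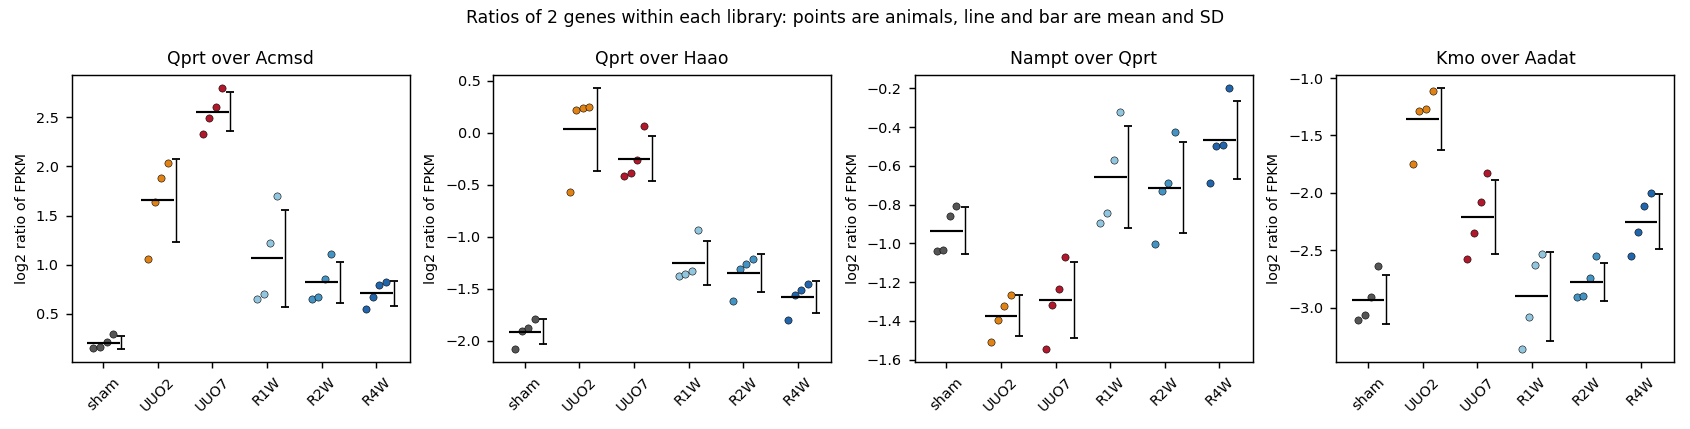
Log2 ratio of FPKM of 2 genes in the same library (vertical axes) by group; points are animals, line and bar are mean and SD over 4. The ratio of Qprt to Acmsd averaged 0.21 in sham, 2.56 in UUO7 and 0.71 in R4W, and that of Kmo to Aadat was highest in UUO2 at -1.36.

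Of the salvage and final genes, Nampt and Nadsyn1 were lower in UUO7 than in sham, and Naprt was not called. Nampt, the rate-limiting enzyme of nicotinamide salvage, measured 28.6, 27.6, 27.8 and 29.0 FPKM in sham, 33.2, 27.9, 29.8 and 25.9 FPKM in UUO2, and 20.9, 20.2, 16.2 and 17.8 FPKM in UUO7. Sham and UUO2 overlapped, and UUO7 lay below both. Nampt fell 1.51-fold in UUO7 against sham (log2 difference -0.57 ± 0.08, limma adjusted p = 1.55e-06) and 1.56-fold against UUO2 (log2 difference -0.61 ± 0.08, limma adjusted p = 1.33e-06). Nadsyn1, the NAD synthetase, ranged from 14.5 to 17.4 FPKM in sham, from 11.2 to 13.8 FPKM in UUO2 and from 11.0 to 12.0 FPKM in UUO7, and fell by 0.38 and 0.43 (log2, limma adjusted p = 0.00128 and 0.000132). Naprt, which salvages nicotinic acid, ranged from 29.4 to 30.8 FPKM in sham, from 32.0 to 33.2 FPKM in UUO2 and from 25.5 to 30.9 FPKM in UUO7. Its differences from sham were 0.12 in UUO2 and -0.06 in UUO7 on deposited values (limma adjusted p = 0.222 and 0.51) and -0.02 and -0.53 on rescaled values (adjusted p = 0.904 and 6.76e-05), with no call in either.

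**Figure D3:**
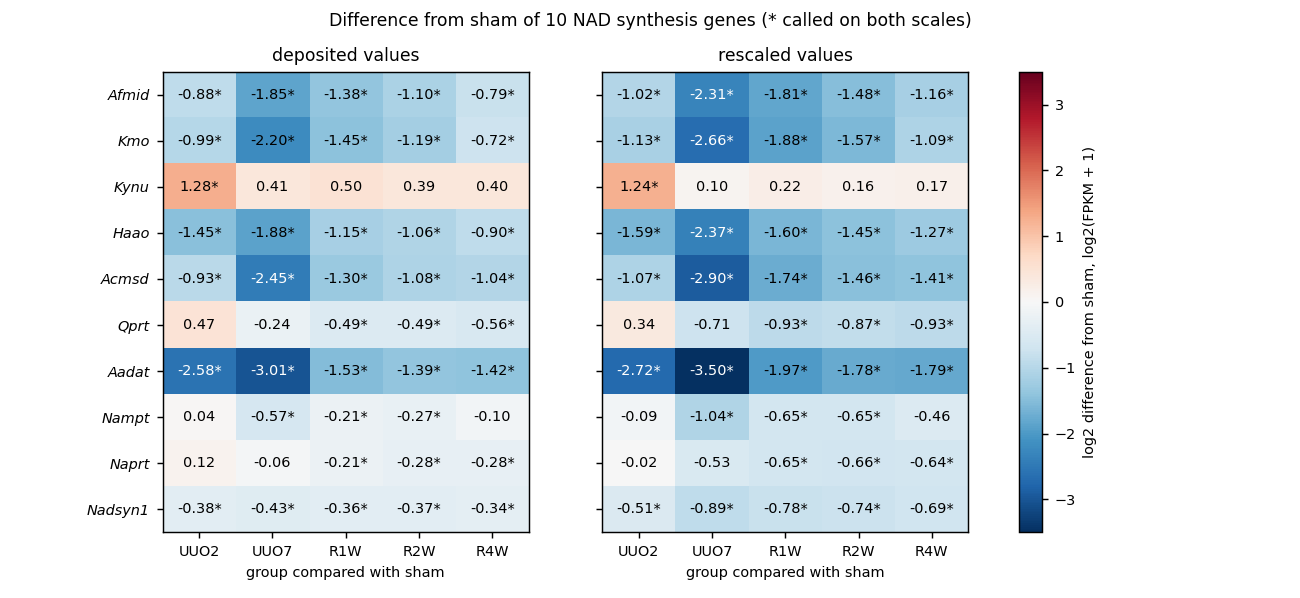
Log2 difference from sham of the 10 genes (rows) in 5 groups (columns) on deposited values (left) and rescaled values (right), with color for the size and an asterisk for a call on both scales. Aadat in UUO7 is the deepest cell of either panel, at -3.01 on deposited and -3.496 on rescaled values, and Kynu in UUO2 holds the single rise called at 1.28.

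Because of these unequal falls the order of the genes changed. In sham, Aadat (328 ± 66.1 FPKM, SD, n = 4) led, followed by Haao (204 ± 21.5 FPKM) and Qprt (54.2 ± 4.42 FPKM), and the first 2 did not overlap with each other or with Qprt. In UUO2, Qprt (75.5 ± 4.62 FPKM), Haao (75.2 ± 19.0 FPKM) and Aadat (55.0 ± 17.8 FPKM) came first, and each overlapped with its neighbour. In UUO7, Haao (54.9 ± 9.09 FPKM), Qprt (45.8 ± 2.96 FPKM) and Aadat (39.1 ± 3.20 FPKM) came first and again overlapped, while Acmsd dropped to the ninth place, above Kynu alone. In R1W, R2W and R4W, Aadat and Haao led again and overlapped with each other, and both lay above Qprt. Qprt, Acmsd, Kmo and Afmid, with 54.2, 47.0, 42.4 and 39.0 FPKM in sham, formed a run in which each overlapped there with the next, up to Afmid, which did not overlap with Naprt below it.

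Reversal was followed by a partial rise of the genes that had fallen most. In R1W against UUO7, 5 of the 10 genes rose (Kmo, Haao, Acmsd, Aadat and Nampt), where 5.91% of all genes were called higher and 6.73% lower. In R4W against UUO7, 6 rose, the same 5 and Afmid, where 17.6% of all genes were called higher and 23.2% lower. Aadat measured 153, 78.7, 80.5 and 157 FPKM in R1W, above all UUO7 kidneys, a 3.00-fold rise (log2 difference 1.49 ± 0.26, limma adjusted p = 0.00131). Acmsd measured 19.7, 9.55, 21.5 and 27.6 FPKM in R1W, also above all UUO7 kidneys, a 2.51-fold rise (log2 difference 1.14 ± 0.24, limma adjusted p = 0.00414). Replicate 2 of R1W was lowest for Kmo, Haao, Acmsd, Aadat and Qprt. Haao measured 116, 59.2, 90.4 and 111 FPKM in R1W and overlapped with UUO7, and its rise of 0.73 ± 0.22 (limma adjusted p = 0.0294) was no longer called when any of 7 of the 8 libraries was left out.

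In R4W the levels of Aadat were 128, 94.8, 116 and 146 FPKM, a 3.10-fold rise over UUO7 (log2 difference 1.60 ± 0.26, limma adjusted p = 6.10e-05). Kmo measured 21.9, 23.6, 26.9 and 28.8 FPKM, 2.96-fold above UUO7 (log2 difference 1.47 ± 0.16, limma adjusted p = 2.47e-06). Acmsd measured 21.3, 21.5, 21.8 and 24.4 FPKM (2.85-fold, limma adjusted p = 9.22e-05), and Afmid 21.1, 15.6, 27.3 and 25.9 FPKM (2.21-fold, limma adjusted p = 0.000547). These 4 genes did not overlap between R4W and UUO7, and neither did Haao, Nampt, Nadsyn1 and Qprt, of which Qprt was lower in R4W. The share of all genes without overlap was not computed. Haao and Nampt rose by 0.99 and 0.47 (log2, limma adjusted p = 0.00108 and 0.000102). Kynu, Nadsyn1, Naprt and Qprt did not pass on both scales, with differences of -0.00, 0.09, -0.22 and -0.32.

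Kmo alone of the 10 genes was called between the first and the last week of recovery. In R4W against R1W, 4.99% of all genes were called higher and 8.60% lower, so a single call among 10 genes is near that background. Kmo measured 18.0, 12.8, 13.9 and 15.3 FPKM in R1W, below all R4W kidneys, and rose by 0.72 ± 0.16 (limma adjusted p = 0.00812). That call was lost without R1W replicate 3, in a fit on these 2 groups alone, and at an adjusted p under 0.01 (0.0131 on rescaled values). Without R4W replicate 2, the kidney with the conflicting label, or without R1W replicate 1, Afmid was called as well, so that 2 genes rose. The difference of Afmid with all libraries was 0.59 ± 0.22 (limma adjusted p = 0.062).

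Against sham, the genes were still low 4 weeks after reversal. In R1W against sham 9 of the 10 genes were lower, all but Kynu, where 14.7% of all genes were called lower and 33.7% higher. In R2W against sham the same 9 were lower, where 12.9% of all genes were called lower and 31.1% higher. In R4W against sham 8 were lower, all but Kynu and Nampt, where 11.6% of all genes were called lower and 28.9% higher, and the count was 8 with and without R4W replicate 2. As a share of the sham mean, R4W held 37.0% of Aadat, 47.4% of Acmsd, 53.9% of Haao, 57.7% of Afmid, 59.7% of Kmo and 67.4% of Qprt. Nadsyn1, Naprt and Nampt stood at 77.5%, 82.1% and 93.2%. Kmo in R4W was 1.68-fold below sham (log2 difference -0.72 ± 0.16, limma adjusted p = 0.000716) and Aadat 2.70-fold (log2 difference -1.42 ± 0.26, limma adjusted p = 7.31e-05), without overlap.

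Qprt and Naprt were called lower than sham after reversal, though neither was called during obstruction. On rescaled values alone both were already lower in UUO7, at -0.71 and -0.53 (limma adjusted p = 0.000328 and 6.76e-05). Qprt measured 46.0, 30.9, 34.9 and 43.2 FPKM in R1W, 30.1, 48.3, 35.4 and 41.3 FPKM in R2W, and 37.8, 31.4, 37.8 and 38.9 FPKM in R4W, all below the lowest sham kidney at 49.95 FPKM. Its log2 differences from sham were -0.49, -0.49 and -0.56 (SE 0.12, limma adjusted p = 0.00139, 0.00152 and 0.000561). Between R4W and UUO7, Qprt differed by -0.32 on deposited values and -0.21 on rescaled values (limma adjusted p = 0.0368 and 0.263), which is not called. Naprt ranged from 23.5 to 29.3 FPKM in R1W, from 21.4 to 26.8 FPKM in R2W and from 22.5 to 26.4 FPKM in R4W, all below sham, with differences of -0.21, -0.28 and -0.28 (SE 0.08, limma adjusted p = 0.0162, 0.00277 and 0.00339). The call of Naprt in R1W was lost without R1W replicate 2 or R1W replicate 3. Between R4W and UUO7, Naprt differed by -0.22 on deposited and -0.11 on rescaled values (limma adjusted p = 0.0214 and 0.353), which is not called. The log2 differences of Nampt from sham were -0.21 and -0.27 in R1W and R2W (limma adjusted p = 0.0218 and 0.00583), and the call in R1W was lost without sham replicate 4.

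The animals of R2W were spread widely. Replicates 2 and 4 of R2W were the highest of that group for Kmo (25.4 and 20.5 FPKM), Haao (148 and 102 FPKM), Acmsd (30.4 and 26.3 FPKM), Aadat (170 and 154 FPKM), Afmid (22.8 and 20.9 FPKM) and Qprt (48.3 and 41.3 FPKM). Replicates 1 and 3 were lower for each, with Kmo at 14.98 and 13.1 FPKM, Acmsd at 16.6 and 16.4 FPKM and Aadat at 88.0 and 97.9 FPKM. The summed proximal tubule markers of the R2W group ranged from 3183 to 5976 FPKM. The part of the amount of proximal tubule RNA in this spread was not tested.

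To set the genes beside the cell type known for the complete de novo route, the mean log2(FPKM + 1) of the 10 proximal tubule markers was subtracted within each library. The main cell type of each gene in these kidneys is not known from bulk RNA. The change of that marker mean from sham was -0.86 in UUO2, -2.13 in UUO7, -1.40 in R1W, -1.20 in R2W and -0.85 in R4W. Kmo and Afmid stayed near it. Relative to the markers (sham mean 0), group means were between -0.13 and 0.13 for Kmo and between -0.02 and 0.28 for Afmid. Both overlapped with sham in all 5 groups. Acmsd overlapped with sham in all 5 groups as well, with means from -0.31 in UUO7 to 0.12 in R2W, though only by a narrow margin in UUO7 (-0.42 to -0.04) and R4W (-0.27 to -0.07), where the lowest sham value was -0.10. The overlap of Kmo in R4W was narrow as well, from 0.04 to 0.20 against a highest sham value of 0.06. So was that of Kmo in UUO2, from -0.31 to -0.05 against a lowest sham value of -0.09. Afmid in UUO7 also overlapped narrowly, from 0.07 to 0.51 against a highest sham value of 0.09. Aadat was below the markers in UUO2 at -1.72 and in UUO7 at -0.88 and did not overlap with sham in either. It overlapped with sham in R1W (-0.12) and R2W (-0.19). In R4W it overlapped by a narrow margin (-0.57, from -0.74 to -0.37, where the lowest sham value was -0.39). Haao was below the markers without overlap with sham in UUO2 alone, at -0.59. Qprt, Kynu, Nampt, Naprt and Nadsyn1 lay above the markers in all 5 groups without overlap with sham, with means in UUO7 of 1.90, 2.54, 1.56, 2.08 and 1.70. In UUO7 the median difference of all genes from sham was 0.42, beside -2.13 for the marker mean. A place above the markers was thus not particular to these genes. The share of all genes without overlap was not computed.

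**Figure D4:**
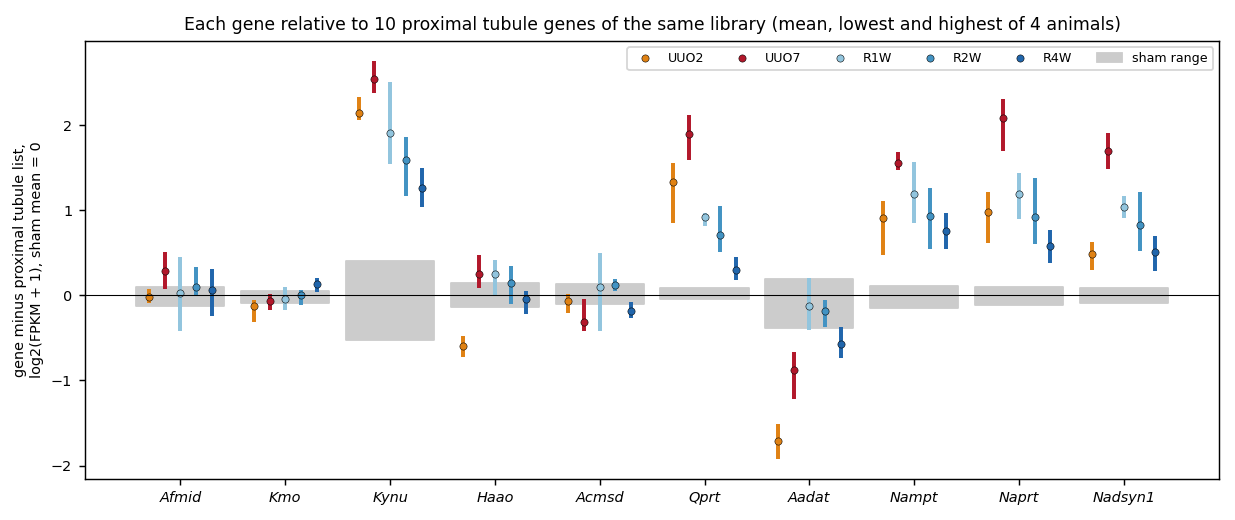
Each gene's log2(FPKM + 1) minus the mean of 10 proximal tubule genes in the same library (vertical axis, sham mean set to 0), with the mean as a point and the lowest and highest of 4 animals as a bar; the gray block is the sham range. Kmo, Afmid and Acmsd overlap with the sham range in all 5 groups, and Aadat in UUO2 lies at -1.72.

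The 4 markers of the last proximal segment, S3, changed at another pace than the main proximal list. Their median log2 difference from sham was -2.75 in UUO2, -2.49 in UUO7, -1.29 in R1W, -1.04 in R2W and -1.07 in R4W. All 4 were called lower in each, where 17.0%, 17.8%, 14.7%, 12.9% and 11.6% of all genes were called lower. The differences of Aadat in the same groups were -2.58, -3.01, -1.53, -1.39 and -1.42, and those of Haao -1.45, -1.88, -1.15, -1.06 and -0.90. The part of S3 RNA in the early fall of Aadat and Haao was not tested. The 8 macrophage markers summed to 49.2 to 83.0 FPKM in sham, 84.7 to 193 FPKM in UUO2, 958 to 1148 FPKM in UUO7 and 700 to 1386 FPKM in R4W, with none at 0 in a whole group, and Kynu is also known from macrophages. The part of macrophage RNA in the level of Kynu was not tested.

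Genes whose 5 differences from sham were closest to each of the 10 were found by the root mean square difference over those 5 differences, among genes averaging at least 10 FPKM. For Kmo these were Abat, Slc9a3 and Lrrc19 (0.069, 0.086 and 0.092 log2 units), and for Afmid Xylb, Slc22a12 and Arsb (0.077, 0.087 and 0.092). For Haao they were Pank1, Acss2 and Mettl7a2 (0.069, 0.1003 and 0.113), for Acmsd Aass, Aldh6a1 and Upb1 (0.128, 0.162 and 0.167), and for Aadat C1qtnf3, Acsm3 and Hpd (0.194, 0.255 and 0.268). Qprt was nearest to Guca2b, Anks4b and Prr5 (0.084, 0.090 and 0.099), and Kynu to Ccar1, Fam133b and Ankrd17 (0.102, 0.119 and 0.132). Nampt was nearest to Dcun1d1, Mkln1 and Epb41l5 (0.057, 0.062 and 0.075), Nadsyn1 to Rars2, Hacd2 and Mat2a (0.035, 0.044 and 0.044), and Naprt to Timm50, Samm50 and Gpx1 (0.024, 0.059 and 0.062). Within the 10 genes, the closest pairs were Kmo with Afmid (0.174) and Kmo with Acmsd (0.199).

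Genes around the pathway were read from fixed lists, with values for those of greatest difference in UUO7. Of the 6 tryptophan transport genes, 4 fell and Slc7a5 rose in UUO7 against sham, where 17.8% of all genes were called lower and 36.5% higher. The list medians were -0.47 on deposited and -0.92 on rescaled values, beside 0.42 and 0.01 for all genes. Slc6a19, the apical neutral amino acid carrier of the proximal tubule, fell from 74.5 ± 11.3 to 9.82 ± 2.15 FPKM (log2 difference -2.81), and its partner Tmem27 (collectrin) from 898 ± 60.5 to 358 ± 53.0 FPKM (-1.34). Slc7a5, a light chain of the large neutral amino acid exchanger, went from 1.23 ± 0.269 to 4.18 ± 0.282 FPKM (1.22), and Slc7a8 fell from 30.2 ± 2.66 to 20.1 ± 1.74 FPKM (-0.56). Of the 6 genes of tryptophan entry and the side branches 4 had a row, not counting Tdo2 and Ido1, and all 4 fell in UUO7 (list median -0.95 deposited, -1.43 rescaled). Ido2 fell from 5.15 ± 0.592 to 0.625 ± 0.176 FPKM (-1.92), Kyat3 by 1.00, Got2 by 0.90 and Kyat1 by 0.86 on the log2 scale, the last 3 being aminotransferases that, like Aadat, can make kynurenic acid. In UUO2, Ido2 had already fallen to 0.793 ± 0.779 FPKM (-1.86).

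Of the 8 genes of salvage and the final steps 6 had a row, and 1 fell and 1 rose in UUO7 against sham (list median 0.10 deposited, -0.37 rescaled), where 17.8% of all genes were called lower and 36.5% higher, so neither count stands above that background. Nnmt, which methylates nicotinamide and so removes it from salvage, rose from 0.700 ± 0.638 to 11.1 ± 0.751 FPKM (2.89), and was still at 5.24 ± 1.81 FPKM in R4W (1.90, called). The 5 fibroblast markers summed to 28.4 to 66.8 FPKM in sham, 498 to 648 FPKM in UUO7 and 226 to 355 FPKM in R4W, and the 5 injured tubule markers to 5.42 to 21.2, 1375 to 1726 and 200.2 to 305 FPKM, and their part in the rise of Nnmt was not tested. Nmnat1, the nuclear adenylyltransferase that joins the routes, fell from 10.1 ± 1.24 to 6.68 ± 0.590 FPKM (-0.53). All 4 genes of NADP formation and mitochondrial NAD fell in UUO7 (list median -0.86 deposited, -1.33 rescaled), and all 4 rose again in R4W against UUO7, where 17.6% of all genes were called higher. Nnt, the transhydrogenase, fell from 88.8 ± 2.96 to 32.9 ± 0.693 FPKM (-1.40) and stood at 60.9 ± 6.75 FPKM in R4W. Nadk2, the mitochondrial NAD kinase, fell by 1.18, Slc25a51, the mitochondrial NAD carrier, by 0.53, and Nadk by 0.50.

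Of the 12 NAD-consuming enzymes 11 had a row, and in UUO7 against sham 1 fell and 4 rose, a share near the 36.5% of all genes called higher there, with a list median of 0.37 on deposited and -0.08 on rescaled values. Sirt3, the main mitochondrial deacetylase, fell from 77.8 ± 4.96 to 25.1 ± 1.77 FPKM (-1.59) and was at 48.4 ± 5.99 FPKM in R4W. Cd38 rose from 1.202 ± 0.144 to 6.30 ± 0.214 FPKM (1.73) and was at 4.90 ± 0.641 FPKM in R4W, and its relative Bst1 rose from 7.34 ± 4.66 to 15.3 ± 0.996 FPKM (1.13). Parp2, a DNA damage sensor, rose by 0.96. Cd38 and Bst1 are also carried by immune cells, and all 8 macrophage markers rose in UUO7 and in R4W against sham, and the part of these cells was not tested. Of the regulators, 3 are given here, and all 3 fell in UUO7, where 17.8% of all genes were called lower: the nuclear receptor Ppara from 9.92 ± 2.51 to 2.17 ± 0.472 FPKM (-1.77), Hnf4a from 182 ± 19.4 to 63.0 ± 8.09 FPKM (-1.52) and the coactivator Ppargc1a from 9.03 ± 0.944 to 4.91 ± 0.236 FPKM (-0.76). In UUO2, Hnf4a was called lower (-0.45), whereas Ppara and Ppargc1a, at -0.40 and -0.19, were not.

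**Figure D5:**
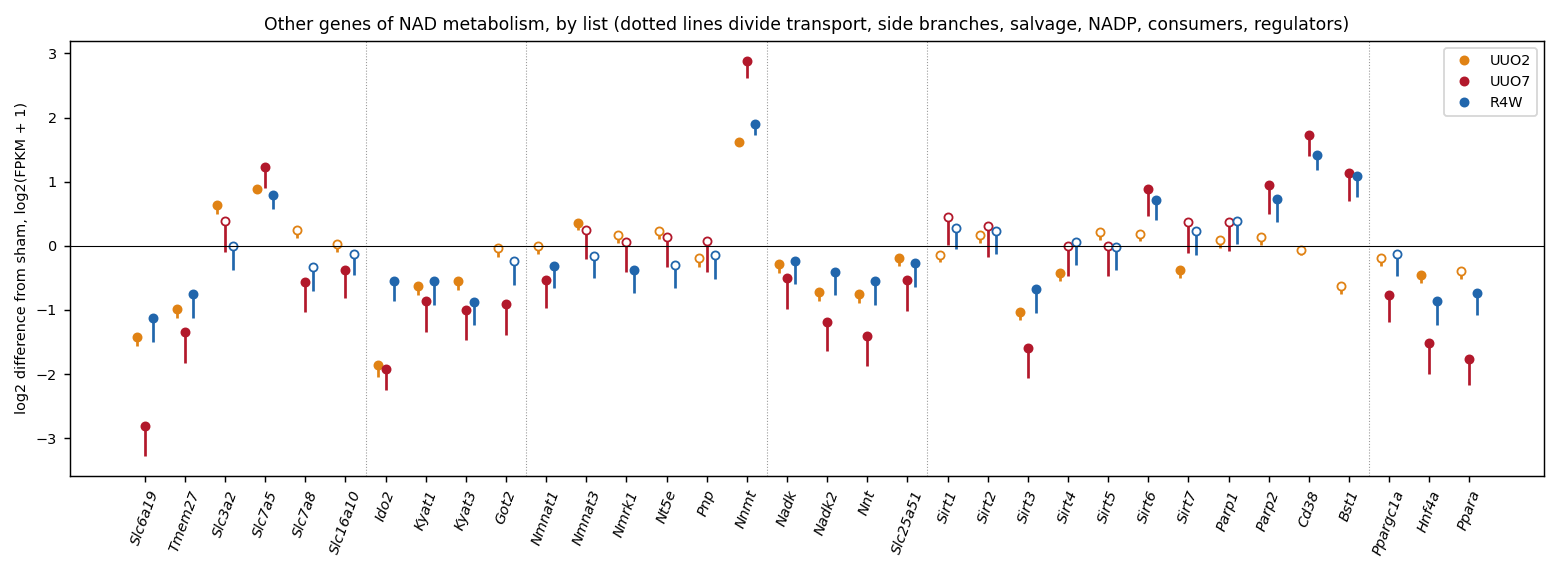
Log2 difference from sham (vertical axis) of the surrounding genes in UUO2, UUO7 and R4W; the circle is the deposited value, filled where called on both scales, and the line runs to the rescaled value. Slc6a19 at -2.81 and Nnmt at 2.89, both in UUO7, are the outermost points.

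The authors' own fold changes were copied for the 10 genes. In the authors' deposited table the log2 fold of UUO-7 over Sham was -2.78 for Kmo, -3.22 for Acmsd, -2.56 for Afmid, -3.23 for Aadat and -2.40 for Haao. The authors' deposited table gives Qprt at 0.36 in UUO-2 over Sham (adjusted p = 0.00474) and at -0.74 in UUO-7 over Sham (adjusted p = 1.97e-11). The authors' deposited table gives Naprt at -0.00 in UUO-2 over Sham (adjusted p = 0.999) and at -0.56 in UUO-7 over Sham (adjusted p = 2.93e-09). For Qprt and Naprt in UUO7 the values from the authors' deposited table, like the rescaled differences of -0.71 and -0.53, lie below sham further than the deposited FPKM do. The authors' deposited table gives Nampt in R4W over Sham as -0.40 (adjusted p = 4.57e-06), and the rescaled difference was -0.46 (limma adjusted p = 0.000316), while the deposited FPKM overlapped with sham at -0.10 (limma adjusted p = 0.279).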

How the data were processed

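Kidney RNA of 24 mice (6 groups of 4) was analysed from the table of FPKM values that the authors deposited, 1 column per animal, with 0 further per-sample columns. Tools named in the submitters' processing notes are FastQC, RSEM, Bowtie2 and DESeq2 with mm10, without versions, and which step each served is not given in the sources used here. The smallest gene mean in the table was 1.00 FPKM, so genes of lower mean were not analysed. The sum of FPKM times mean transcript length came to 0.884 to 0.953 of the value that FPKM should give in each library. Fold changes and adjusted p-values of the authors' own comparisons, so named per the file headers, were copied as deposited. That the deposited fold changes are log2 values, and their direction, was inferred from their slope on the sample columns.

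Tests used limma 3.58.1 under R 4.3.3, with a trended eBayes after lmFit. A single model held all 24 libraries as log2(FPKM + 1) with a coefficient for each group. It was run on the values as the authors deposited them and on rescaled values, with Benjamini-Hochberg adjustment over 14785 genes. No count model was used, since the table holds no counts, and the depth of each library is not given in the sources used here. SE is limma's moderated standard error. The code was tested on simulated data. Comparisons against sham share the same 4 sham libraries. Numbering of replicates comes from the titles and different animals carry the same number: correlations of same-numbered deviations had means of -0.17 to 0.15 per comparison, with single pairs from -0.33 to 0.45 (the highest in R1W against UUO7), and no comparison had all 4 pairs above 0.1, so the numbers were not taken to pair animals. Only the sham titles speak of mice, so p-values measure the spread between these samples. The 10 genes and all lists were chosen with earlier results of these data known. All 10 are named, with up to 4 called genes per surrounding list (greatest absolute difference, UUO7 against sham) and the 3 genes most alike to each of the 10. Promoter searches and ranges used Python 3.11.15, numpy 2.4.6 and pandas 2.3.3. Protein sequences were not used here, and some items of the lists are not reported here. Alternatives were another scaling, pseudocount, filter, sample set, threshold, replicate block and the removal of each library.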

Additional observations from a re-analysis of the deposited data

Results flagged for a closer look

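In 60 checks of the highest or lowest animal within a group of 4, 5 values lay far from the other 3, where chance gives about 3. These were Aadat in sham replicate 2 (230 FPKM, the lowest, in the library with raised adipose and urothelial markers), Haao in UUO2 replicate 2 (103 FPKM, the highest), Kynu in UUO7 replicate 3 (2.00 FPKM, the lowest), Qprt in R4W replicate 2 (31.4 FPKM, the lowest, in the kidney with the conflicting label) and Acmsd in R4W replicate 4 (24.4 FPKM, the highest).

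Qprt lay on opposite sides of sham at different times: all 4 animals were above the sham range in UUO2 (log2 difference 0.47), and all 4 were below it in UUO7 (-0.24), R1W (-0.49), R2W (-0.49) and R4W (-0.56). The differences from sham in UUO2 and UUO7 did not pass on both scales. The difference between UUO7 and UUO2 was tested and called, at -0.71. In the authors' deposited table, Qprt in R1W, R2W and R4W over UUO2 was -1.32, -1.26 and -1.34 (adjusted p = 9.85e-13, 5.80e-10 and 3.61e-32). Naprt had all 4 animals above the sham range in UUO2 (0.12) and below it in R1W (-0.21), R2W (-0.28) and R4W (-0.28). Its difference in UUO2 did not pass the limma test (adjusted p = 0.222) and was -0.02 on rescaled values. In the authors' deposited table, Naprt in R1W, R2W and R4W over UUO2 was -0.69, -0.71 and -0.70 (adjusted p = 3.43e-07, 1.99e-07 and 7.73e-17).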

How the results depend on the processing

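Counts of calls among the 10 genes moved most often with a minimum size of difference. Rescaled values alone called 10 genes in UUO7 against UUO2, compared with 6 on both scales, where they called 31.9% of all genes lower. An absolute log2 difference of at least 1 left 3 genes in UUO2 and 5 in UUO7 against sham, 2 in UUO7 against UUO2, 2 in R1W and 4 in R4W against UUO7, 5 in R1W, 5 in R2W and 2 in R4W against sham, and 0 in R4W against R1W. An adjusted p under 0.01 left 2 in R1W against UUO7 and 0 in R4W against R1W. The share of all genes that passed either of these settings is not given here. Whether the 10 genes lost more calls than other genes under them is therefore not known. R4W against R1W gave 1 gene over all groups, 0 by limma on these 2 groups alone, and 2 with R4W replicate 2 left out or placed in R2W; at an unadjusted p under 0.05, limma gave 2 in either fit. Leaving out each library in turn gave 0 to 2 genes in R4W against R1W, 4 to 5 in R1W against UUO7, 6 to 7 in UUO7 against UUO2, 8 to 9 in R1W against sham, and the same count throughout in UUO2 against sham (7), UUO7 against sham (7), R2W against sham (9), R4W against sham (8) and R4W against UUO7 (6). With the replicate block, the counts were 7 in UUO2 and 7 in UUO7 against sham, 6 in UUO7 against UUO2, 4 in R1W and 6 in R4W against UUO7, 9 in R1W, 9 in R2W and 8 in R4W against sham, and 1 in R4W against R1W; Haao in R1W against UUO7 was lost, and that call was also lost with a pseudocount of 10 and in the fit on these 2 groups. Of all 14785 genes, the replicate block called 6090 in UUO2 and 7978 in UUO7 against sham, compared with 6219 and 8025 without it. In R1W against UUO7 it called 1622, compared with 1869. Fewer of all genes were called with the block in every comparison. No difference of the 10 genes that was called reversed its direction in any alternative run. What depth limits was not computed, since the table holds no counts.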
